A study of Mus musculus with 18 samples.

Results

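Spleens of mice given a high fat diet with streptozotocin (the group HS) were compared with spleens of the control group across the 12969 genes, of 19326 listed, that reached at least 1 FPKM in at least 3 of 18 libraries. The comparison used the 6 libraries whose labels give one or the other of these treatments, 3 in each group, of the 18 libraries in 6 groups. All 18 come from ICR mice, an outbred stock, aged 10 weeks. HS mice had a high fat diet and STZ, short for streptozotocin, a toxin taken up by the insulin-producing cells of the pancreas. Control mice are labelled only as control, and the diet or vehicle they received is not given in the sources used here. No group had the diet or STZ alone, so the contributions of the diet and of the toxin cannot be told apart. A second pair of groups carried the same difference in treatment on top of AOS, an abbreviation that is left unexplained in the labels, given at 10 mg/kg. This pair is HS_AOS against AOS. These 6 libraries share none with HS and control, and they are used below to ask which differences recurred. The remaining 6 libraries had diet and STZ with what the labels call AOS10mg/kg-FMT (HS_AOSFMT) or control-FMT (HS_conFMT), where FMT commonly stands for faecal microbiota transplantation. They enter the fit and are quoted for single genes.

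The spleen filters blood and houses lymphocytes, and its macrophages clear aged red cells and take up lipoproteins and free fatty acids. Cells that take in more fatty acid store it as droplets coated with perilipins and, through the PPAR nuclear receptors, which bind fatty acids as ligands, transcribe genes of fatty acid oxidation and of ketone body synthesis. Lack of insulin releases fatty acids from adipose tissue and raises ketone bodies in blood, and extrahepatic tissues burn those ketone bodies with the enzyme encoded by Oxct1.

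Levels are FPKM (fragment counts scaled by transcript length and by mapped fragments), which is inferred from how the values behave. Log2 changes are HS minus control on log2(FPKM + 1), with standard errors (SE), from limma over all 18 libraries. A gene is described as called where its p-value, adjusted by Benjamini-Hochberg over these 12969 genes, lay under 0.05. Whether each library represents its own animal is not stated, so p-values measure the spread between libraries, which may be technical. The filter on low values kept 132 genes that reached 1 FPKM in exactly 3 libraries and left out 173 that did so in exactly 2. In whole spleen, fewer cells of a type and less RNA per cell cannot be told apart.

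The 6 libraries had summed FPKM from 673428 to 831448, and 12221 to 12898 genes reached 1 FPKM in each. The alpha-globin gene Hba-a1 was the highest gene in all 6. Markers of spleen cells were present in every one, with the B cell receptor partner Cd22 between 108 and 182 FPKM and the marginal zone macrophage receptor Marco between 32.6 and 64.9 FPKM. Several libraries stood apart before any group was compared. Control 1 gave 2.15% of its summed FPKM to 20 neutrophil genes, against 0.306% to 0.766% in the other 5. HS 1 gave 3.29% to 28 genes of the pancreatic acinar cell, against 0.00572% to 0.526% in the other 5.

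Across all genes, limma called 1 gene higher in HS, Plin2, and 1 lower, Kap, which is 0.0154% of the genes tested. At an unadjusted p under 0.05, 380 genes (2.93%) were higher and 450 (3.47%) lower. All 3 HS libraries exceeded all 3 control libraries in 505 genes (3.89%), and lay below them in 603 (4.65%). The count of calls depended on single libraries: 2 genes were called higher and 5 lower without control 2, and 3 higher and 17 lower without control 3. With control 1 and HS 1 both left out, Kap, Gsta3 and Smim4 were called lower and no gene was called higher (214 were higher at an unadjusted p under 0.05). Fitted to the 6 libraries alone, limma called 0 genes (247 higher and 201 lower at an unadjusted p under 0.05). Genes other than Plin2 are therefore described by their values. So is Kap, which passed the filter on low values through the controls, the group where it is high.

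Plin2 encodes perilipin 2, the main coat protein of lipid droplets outside fat cells (mm10, chromosome 4, 86648386 to 86670060). It stood at 23.2, 25.5 and 22.2 FPKM in the control libraries and at 41.9, 39.1 and 39.3 in HS. The lowest HS library held more than the highest control, and the libraries within each group stayed close together. Plin2 rose from 23.6 ± 1.70 to 40.1 ± 1.55 FPKM (SD, n = 3; log2 change 0.74, SE 0.087, adjusted p = 0.00205 by limma). The call was lost when control 1 and HS 1 were left out together (log2 change 0.70, adjusted p = 0.063) and in the fit to the 6 libraries alone (adjusted p = 0.366), with no change of direction.

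Of the 16 tested genes of the lipid droplet coat and its turnover, 5 were higher in HS and 11 lower, and the median log2 change was -0.12, against -0.01 over all genes. Plin2 was the only one called. Hilpda, an inhibitor of triglyceride lipase that promotes droplet storage, stood at 5.69, 6.57 and 4.97 FPKM in control and 9.57, 8.74 and 7.25 in HS. Plin3, a perilipin of nascent droplets, stood at 9.33, 12.1 and 14 in control and 14.3, 15.5 and 16.5 in HS. Plin2, Hilpda and Plin3 were the only members of the list whose HS libraries all exceeded the controls, against 3.89% of all genes. Dgat2, which makes the final step of triglyceride synthesis, went the other way, with 4.41, 6.65 and 5.29 FPKM in control against 2.7, 3 and 2.82 in HS (log2 change -0.73, SE 0.26, adjusted p = 0.681, not called). Plin1, the perilipin of fat cells, reached 0.23, 1.6 and 1.47 FPKM in control and 0.2, 0.75 and 0.08 in HS, with control 1 inside the HS range.

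**Figure D1:**
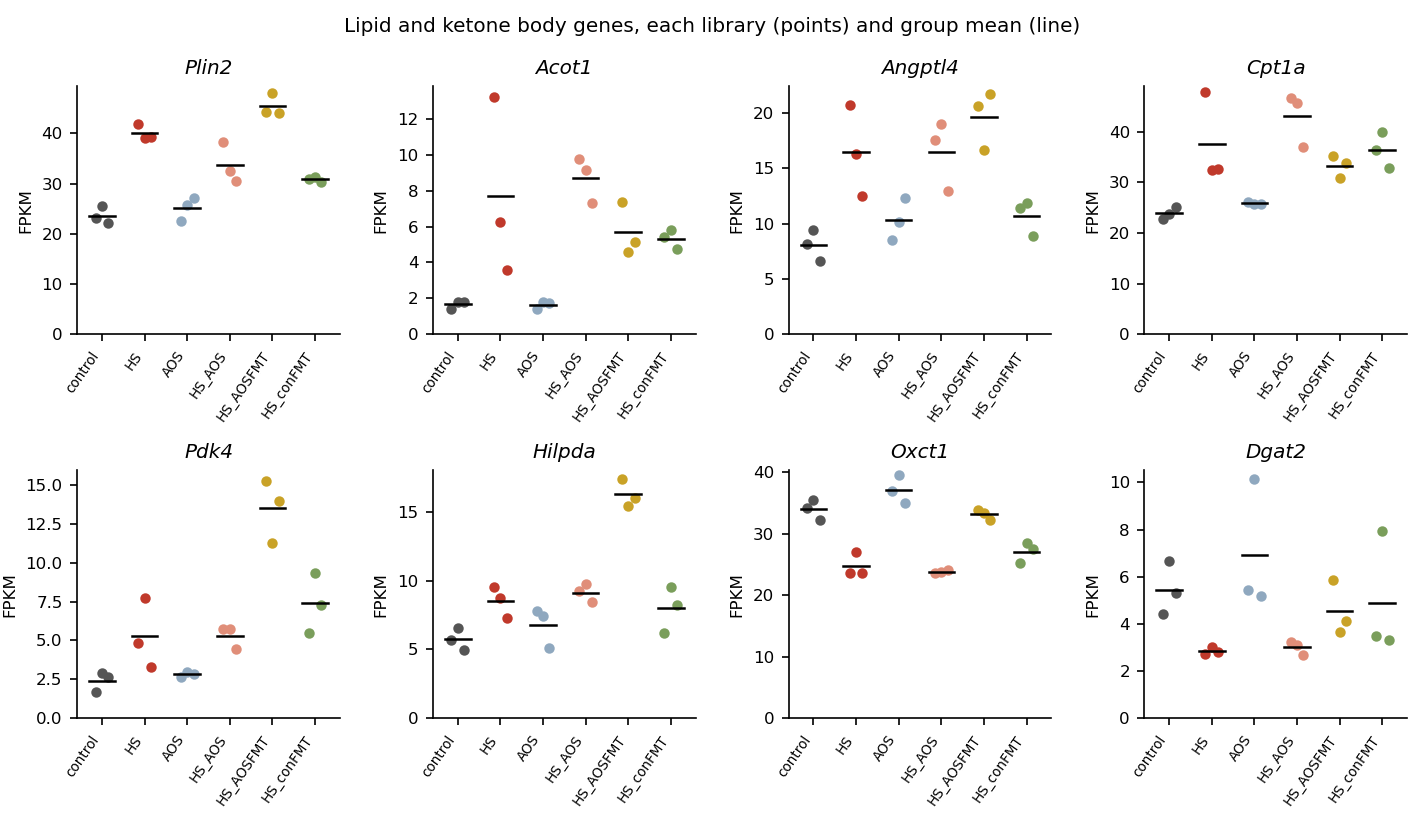
FPKM (y axis, from 0) of 8 genes of lipid and ketone body metabolism in each of the 6 groups (x axis); each point is a library and each line the mean of 3. Plin2, Acot1, Cpt1a and Pdk4 were higher in every library with diet and STZ than in every control and AOS library, and Oxct1 was lower in HS and HS_AOS but not in HS_AOSFMT.

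Several genes that PPAR receptors are known to switch on stood near the higher end of the ranking. Of the 15 genes with the smallest p among those higher in HS, 5 belong to the lipid lists, namely Plin2, Acot1, Acot2, Angptl4 and Cpt1a. Acot1 (chromosome 12, 84009490 to 84018371), a cytosolic acyl-CoA thioesterase, showed 1.39, 1.77 and 1.81 FPKM in control and 13.2, 6.27 and 3.6 in HS. Every HS library lay above the control range, but HS 1 held more than HS 2 and HS 3, and the gene was not called (log2 change 1.56, SE 0.28, adjusted p = 0.123). Without HS 3 it was called (log2 change 1.94, adjusted p = 0.00423). Acot2, its mitochondrial relative next to it on chromosome 12, stood at 3.98, 4.61 and 5.25 in control and 8.34, 6.01 and 7.1 in HS. Acot1 and Acot2 are close copies, and how reads were divided between them is not given in the sources used here.

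Angptl4 (chromosome 17, 33773750 to 33781830), a secreted inhibitor of lipoprotein lipase, stood at 8.13, 9.47 and 6.63 FPKM in control and 20.7, 16.3 and 12.5 in HS (log2 change 0.93, SE 0.19, adjusted p = 0.224). Cpt1a (chromosome 19, 3322334 to 3385733), the gate for long-chain fatty acids into mitochondria, stood at 22.8, 23.7 and 25.2 in control and 47.8, 32.5 and 32.6 in HS (log2 change 0.61, SE 0.13, adjusted p = 0.241). Slc25a20, the carrier that brings acylcarnitine across the inner membrane behind Cpt1a, stood at 8.25, 10.2 and 7.87 in control and 18.97, 11.3 and 10.99 in HS. In each of the 3 genes HS 1 was the highest library and HS 2 and HS 3 still exceeded every control. Pdk4, a kinase that turns off pyruvate dehydrogenase and so spares glucose, stood at 1.71, 2.88 and 2.65 FPKM in control and 4.84, 7.74 and 3.31 in HS, with HS 2 highest.

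Of 32 tested members of the list of fatty acid oxidation and PPAR targets, 17 were higher and 15 lower in HS, with a median log2 change of 0.01. Those with an unadjusted p under 0.05 were 6, all higher, against 2.93% of all genes: Acot1, Angptl4, Cpt1a, Acot2, Pdk4 and Slc25a20. Acadm, the medium-chain dehydrogenase, stood at 29.7, 31.97 and 34.4 FPKM in control and 29.1, 30.2 and 24.7 in HS. Cpt2, the partner of Cpt1a on the inner membrane, stood at 11.6, 11.1 and 10.1 in control and 11.5, 8.45 and 8.88 in HS. Acadm and Cpt2 overlapped between groups and had lower means in HS. Cpt1b, the muscle form, lay below control in all 3 HS libraries, at 1.88, 2.21 and 1.77 in control and 1.51, 1.6 and 1.51 in HS. Fatty acid uptake genes were likewise mixed, 6 higher and 12 lower of 18. The scavenger receptor and fatty acid carrier Cd36 overlapped between groups (60.8, 71.5 and 107 FPKM in control, 79.8, 90.03 and 92.3 in HS).

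Since several of these genes are textbook PPAR targets, their promoters were searched for the hexamer AGGTCA, the core to which PPAR and other nuclear receptors bind, in the 250 bases before the start of each gene (both strands, RefSeq, GRCm38.p6). Of 9 lipid and ketone genes, 8 have an entry and 2 of these hold the hexamer, Plin2 and Cpt1a. It occurs in 4607 of the 32851 promoter windows in the table (14%). The 2 windows are shown because they belong to the called gene and to the mitochondrial gate, with the hexamer in capitals, read here as TGACCT because it lies on the opposite strand:
Plin2, chr4:86670227-86670309, minus strand: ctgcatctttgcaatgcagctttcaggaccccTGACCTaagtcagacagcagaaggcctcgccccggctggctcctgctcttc
Cpt1a, chr19:3323162-3323257, plus strand: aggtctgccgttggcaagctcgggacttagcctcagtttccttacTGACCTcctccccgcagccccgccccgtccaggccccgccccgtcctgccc
The Cpt1a window lies inside the annotated span of the gene, upstream of the start that the table uses. The match begins 218 bases before the start of Plin2 and 94 bases before that of Cpt1a. The direct repeat AGGTCANAGGTCA, in which 2 hexamers are spaced by 1 base, was found in 0 of the 8 and in 0.0335% of all promoter windows. Hilpda, Acot1, Acot2, Pdk4, Slc25a20 and Oxct1 held neither in this window, which says nothing of whether a factor binds. Angptl4 was not searched.

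Of 9 tested ketone body genes, 2 were higher in HS and 7 lower, with a median of -0.14. An unadjusted p under 0.05 was reached by 2 higher and 2 lower genes, against 2.93% and 3.47% of all genes. The groups did not overlap in 1 higher and 2 lower genes, against 3.89% and 4.65% of all genes. Oxct1 (chromosome 15, 4026383 to 4155344), the transferase that commits ketone bodies to oxidation, stood at 34.2, 35.4 and 32.2 FPKM in control and 23.6, 27.1 and 23.6 in HS. The groups did not overlap, and Oxct1 lay just outside the threshold (log2 change -0.44, SE 0.070, adjusted p = 0.0544). It was called with a filter of at least 5 FPKM (adjusted p = 0.0388) or none (0.0243), without HS 2 (0.0256), without control 3 (0.026) and with the replicate block (0.0305). In the fit to the 6 libraries alone its adjusted p was 1. Acat1, a thiolase that works in both directions, stood at 25.2, 24.2 and 23.6 in control and 22.1, 20.4 and 21.02 in HS, again without overlap.

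In the lipogenesis list 13 of 17 tested genes were lower (median -0.16), 3 of them with an unadjusted p under 0.05, against 3.47% of all genes. Agpat2, an acyltransferase on the way to triglyceride, stood at 18.7, 15.3 and 12.5 FPKM in control and 10.03, 9.52 and 9.13 in HS. Thrsp, a lipogenic regulator that is also a fat cell transcript, stood at 1.38, 5.47 and 3.62 in control and 0.29, 1.08 and 1.01 in HS. Acaca, acetyl-CoA carboxylase, stood at 5.18, 5.52 and 6.39 in control and 4.58, 4.6 and 5.05 in HS. None of the 3 overlapped between groups. The adipocyte list, in which Thrsp also stands, took 0.00664%, 0.0383% and 0.0318% of summed FPKM in control and 0.00568%, 0.0146% and 0.0049% in HS, and its part in these values was not tested. Fatty acid synthase (Fasn) overlapped between groups, at 8.38, 11.7 and 11.6 in control and 6.66, 10.2 and 9.54 in HS. In cholesterol synthesis 19 of 22 genes were lower (median -0.15, and -0.07 without HS 1). The squalene synthase gene Fdft1 stood at 12.4, 11.8 and 9.03 FPKM in control and 9.31, 8.12 and 9.15 in HS, with control 3 inside the HS range. Apoe, the apolipoprotein through which macrophages export cholesterol, was on the other side, with 542, 702 and 610.1 FPKM in control and 727, 952 and 796 in HS. Of all genes tested, 45.5% were higher in HS.

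Txnip, which glucose induces and which curbs glucose uptake, stood at 103, 140 and 225 FPKM in control and 202, 245 and 212 in HS, where control 3 overlapped HS. It was the only 1 of 23 glycolysis and glucose uptake genes with an unadjusted p under 0.05. The insulin receptor Insr stood at 5.04, 5.71 and 6.38 FPKM in control and 5.13, 4.94 and 5.58 in HS. No gene of the 19 in the insulin and IGF list reached an unadjusted p of 0.05, and its median was 0.05, turning to -0.05 without control 1 and reaching 0.12 without control 3.

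**Figure D2:**
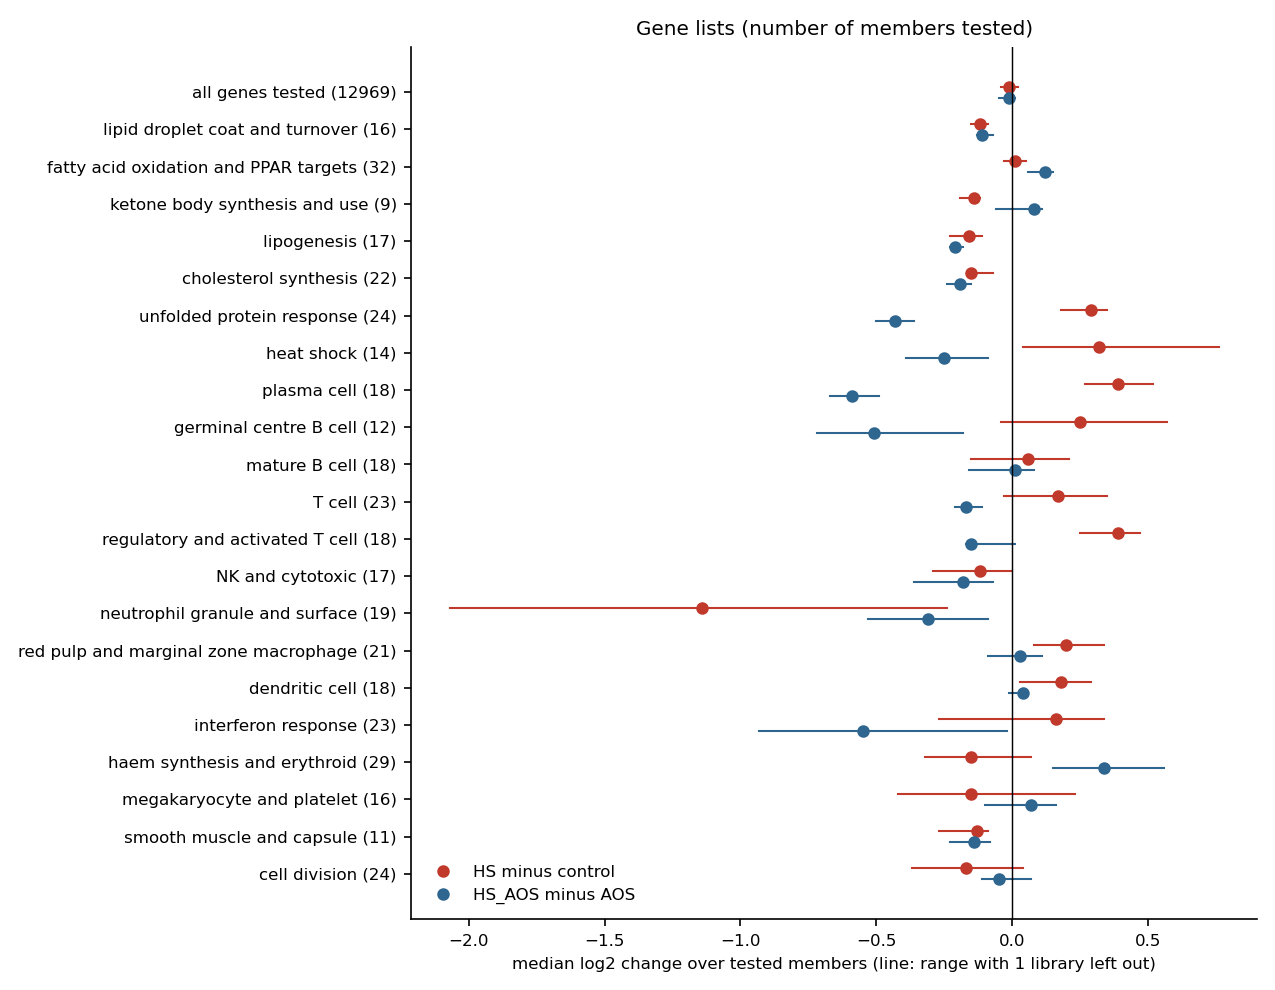
Median log2 change (x axis) over all genes tested and over the tested members of 21 gene lists (y axis, number of genes in brackets) for HS minus control and for HS_AOS minus AOS; lines span the medians with each library of the contrast left out in turn. Lipogenesis and cholesterol synthesis lay below 0 in both comparisons, the unfolded protein response and plasma cell lists lay on opposite sides, and the neutrophil line is the longest.

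Genes of protein folding and of plasma cells were almost all higher in HS. Plasma cells, the antibody factories of the red pulp, depend on an enlarged endoplasmic reticulum and on the unfolded protein response. Of 24 genes of that response, 22 were higher in HS, 9 with an unadjusted p under 0.05 and 11 without overlap between groups, against 2.93% and 3.89% of all genes, and 0 were called by limma. Their median log2 change was 0.29, and 0.18 without control 1. Herpud1, an adaptor of the degradation of misfolded proteins, stood at 46.8, 69.6 and 68.2 FPKM in control and 82.01, 92.1 and 82.3 in HS. Creld2, a secreted stress protein, stood at 25.5, 42.3 and 27.1 in control and 61.96, 47.1 and 47.3 in HS. The chaperone Hsp90b1 stood at 249.6, 349.7 and 314 in control and 399.7, 389 and 387 in HS. In all 3 genes control 1 was the lowest library and the lowest HS library exceeded the highest control. The transcription factor Xbp1, which drives both the response and plasma cell secretion, stood at 50.1, 62.1 and 53.6 in control and 85.96, 65.6 and 66.3 in HS, with HS 1 far above the others.

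Of 18 plasma cell genes, 17 were higher in HS and 9 had an unadjusted p under 0.05, against 2.93% of all genes. Their median was 0.39 (0.27 without HS 1). Jchain, the chain that joins IgM and IgA into polymers, stood at 356, 759 and 352 FPKM in control and 1117, 753 and 639 in HS. Derl3, a channel component for misfolded proteins, stood at 7.16, 18.2 and 7.09 in control and 27.02, 20.2 and 16.6 in HS. The surface proteoglycan Sdc1 (CD138) stood at 3.63, 5.77 and 3.24 in control and 9.07, 5.62 and 5.26 in HS. Control 2 lay within the HS range in each of these 3. Prdm1, which encodes the plasma cell regulator Blimp-1, separated the groups, as did Xbp1 and Creld2, and stood at 1.51, 2.48 and 1.91 FPKM in control and 3.29, 2.7 and 2.72 in HS. Xbp1, Creld2 and Edem1 stand in both lists, so the counts of the lists are not separate. HS 1, the highest library for Creld2, Xbp1, Jchain and Derl3, was also the one with the most pancreatic acinar transcripts, a cell that expresses many of the same folding genes. Without HS 1 the medians were 0.25 for the folding list and 0.27 for the plasma cell list. The part of acinar RNA in the values of HS 1 was not tested.

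Upstream of the plasma cell, B cell genes were near level. The mature B cell list had 10 of 18 genes higher and a median of 0.06, which was -0.15 without control 1 and 0.21 without control 3. Germinal centre genes were higher in 11 of 12 (median 0.25), and 2 of them, Bcl6 and Fas, separated the groups, against 3.89% of all genes. Without control 3 the germinal centre median was -0.04, and without HS 3 it was 0.57.

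All 18 genes of the regulatory and activated T cell list were higher in HS, 8 with an unadjusted p under 0.05 and 7 without overlap, against 2.93% and 3.89% of all genes. The median was 0.39, and it ran from 0.25 without control 1 to 0.47 without control 2. Foxp3, which defines regulatory T cells, stood at 1.89, 4.07 and 2.88 FPKM in control and 4.13, 4.42 and 6.9 in HS. Ctla4, a checkpoint receptor those cells carry, stood at 3.15, 5.29 and 3.2 in control and 6.05, 7.83 and 6.49 in HS. Tbx21, the transcription factor of T helper 1 and natural killer cells, stood at 3.91, 6.35 and 4.82 in control and 10.1, 8.75 and 6.57 in HS. All 3 separated the groups, Foxp3 narrowly. The general T cell list had 21 of 23 genes higher and a median of 0.17, which became -0.03 without control 1 and 0.35 without control 3. Its pan-T gene Cd3e stood at 17.3, 29.2 and 34.04 FPKM in control and 30.4, 37.97 and 31.1 in HS, so control 2 and control 3 overlapped HS. The difference between the 2 T cell lists was not tested.

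Natural killer genes were lower in 13 of 17 (median -0.12, -0.29 without control 1 and 0.00 without control 3). Klra4 (chromosome 6, 130043731 to 130067271), an activating Ly49 receptor, stood at 4.08, 4.23 and 3.87 FPKM in control and 1.02, 1.1 and 2.37 in HS (log2 change -1.06, SE 0.24, adjusted p = 0.364). Ly49 receptors are close copies of one another, so its value is uncertain. Klrd1 (CD94), a subunit of inhibitory and activating receptors, stood at 13.3, 13.1 and 14.4 in control and 11.1, 11.2 and 10.8 in HS. The granule protease Gzma overlapped, at 27.2, 35.8 and 52.8 in control and 18.4, 19.4 and 48.6 in HS.

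**Figure D3:**
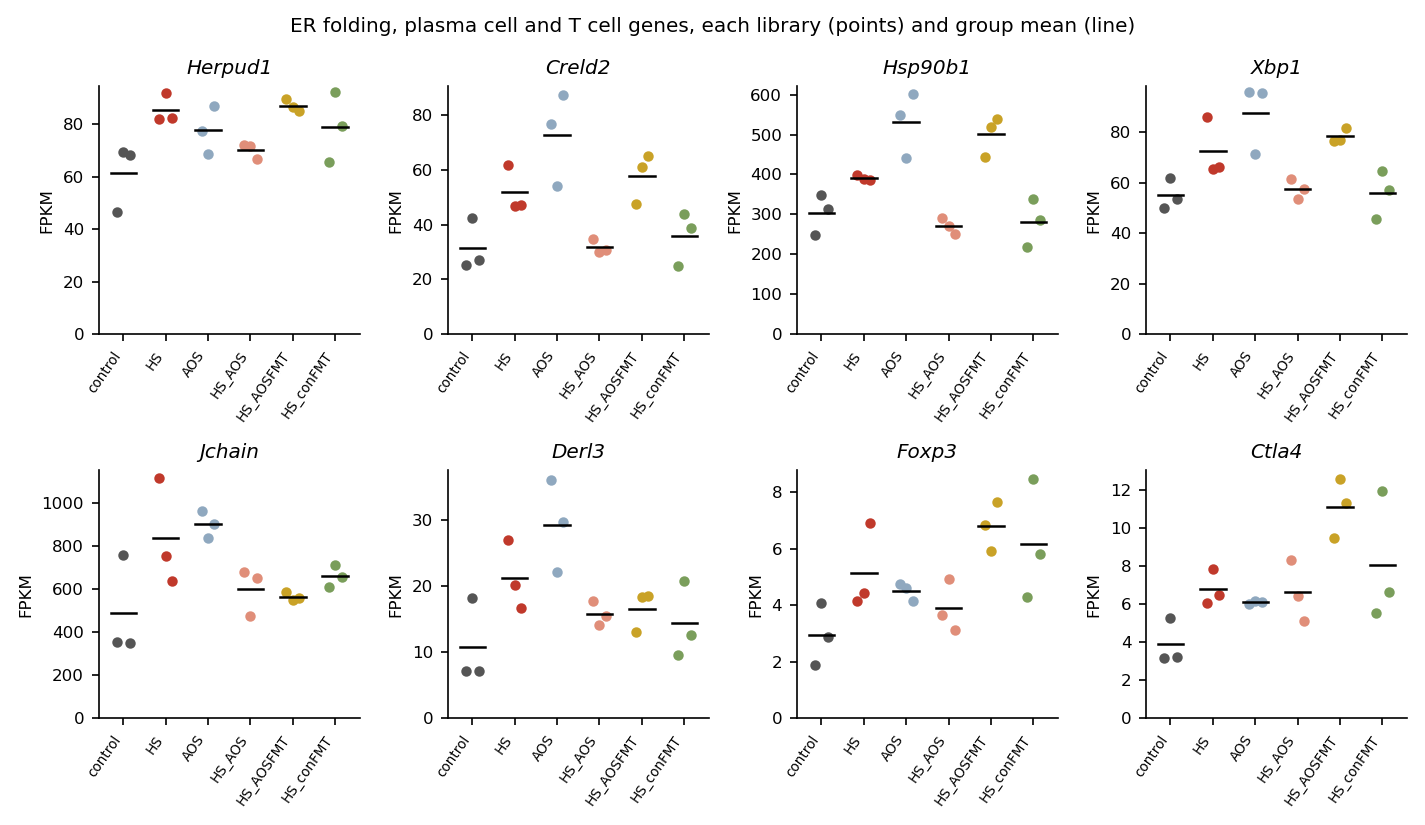
FPKM (y axis, from 0) of 4 genes of the unfolded protein response, 2 plasma cell genes and 2 regulatory T cell genes in each of the 6 groups (x axis); points are libraries and lines are means of 3. The HS mean lay above the control mean in all 8 genes, and the HS_AOS mean lay below the AOS mean in the folding and plasma cell genes.

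Neutrophil genes had the lowest median of the blood cell lists, and control 1 held the highest share. Their summed share was 2.15%, 0.766% and 0.318% in control and 0.488%, 0.306% and 0.39% in HS (exact permutation p = 0.3, two-sided, where 0.1 is the smallest that 3 against 3 libraries allow). Of 19 tested genes 18 were lower, with a median of -1.14 that ran from -2.07 without control 3 to -0.24 without control 1. S100a9, an abundant granulocyte alarmin, stood at 4936, 1355 and 254 FPKM in control and 677, 259 and 490.5 in HS, so control 3 lay below all 3 HS libraries and control 1 above all others. Cxcr2, the chemokine receptor that brings neutrophils out of the marrow, and Stfa2l1, a cysteine protease inhibitor of neutrophils, were the 2 that separated the groups. On that side 4.65% of all genes did so. Cxcr2 stood at 19.4, 8.65 and 7.01 in control and 4.82, 4.36 and 6.45 in HS. The 10 genes of early granulocytes had a median of -0.85 that ran from -1.90 without control 3 to 0.13 without control 1.

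In the red pulp and marginal zone macrophage list 17 of 21 were higher (median 0.20, 0.08 without control 1 and 0.34 without HS 1). An unadjusted p under 0.05 was reached by 5 of them, against 2.93% of all genes. Cd5l, a secreted protein of tissue macrophages, stood at 16.03, 15.2 and 16.7 FPKM in control and 24.4, 19.1 and 32.5 in HS and was the only 1 of the list that separated the groups. Marco stood at 32.6, 37.1 and 51.7 in control and 45.5, 57.5 and 64.9 in HS. The complement gene C1qb was higher in HS 2 and HS 3 only, at 96.4, 94.5 and 108 FPKM in control and 90.1, 147 and 161 in HS. Among dendritic cell genes 15 of 18 were higher (median 0.18, 0.03 without control 1 and 0.29 without HS 1). Fscn1 (chromosome 5, 142960343 to 142973185), the actin bundler of mature dendritic cells, stood at 14.4, 20.6 and 16.1 FPKM in control and 32.96, 24.9 and 33.7 in HS (log2 change 0.81, SE 0.20, adjusted p = 0.438). Ccl2, the chemokine that recruits monocytes, stood at 1.72, 1.34 and 2.13 in control and 3.08, 3.91 and 5.79 in HS, again without overlap. The median of 23 interferon genes was 0.16 with all libraries and -0.27 without HS 3 and 0.34 without HS 1, and 0 had an unadjusted p under 0.05.

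The direction of red cell and platelet genes depended on control 1. Of 29 genes of haem synthesis and the red cell 27 were lower in HS (median -0.15), and of 16 megakaryocyte genes all 16 were (median -0.15). Without control 1 the medians were 0.07 and 0.23, so both directions turned, and without control 3 they were -0.32 and -0.42. The same held for cell division genes, 23 of 24 lower (median -0.17, 0.04 without control 1 and -0.37 without control 3). In these 3 lists 0 genes had an unadjusted p under 0.05. Hbb-bs, a beta-globin gene, stood at 1914, 16795 and 21592 FPKM in control and 25894, 32959 and 31326 in HS, without overlap, whereas Hbb-b1, another beta-globin gene, stood at 90346, 47518 and 23598 in control and 40116, 37291 and 33887 in HS. The mouse beta-globin genes exist as alternative haplotypes with near-identical adult copies, and ICR is an outbred stock, so these values are uncertain as levels of single genes. Across the other groups Hbb-bs ran from 44.2 to 37546 FPKM.

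Cyp1b1 (chromosome 17, 79701537 to 79715061), a monooxygenase of stromal and myeloid cells that the aryl hydrocarbon receptor induces, stood at 6.47, 9.44 and 10.8 FPKM in control and 16.8, 24.02 and 17.1 in HS (log2 change 1.04, SE 0.20, adjusted p = 0.173). Tiparp, another target of that receptor, overlapped between groups, at 5.54, 5.4 and 8.46 in control and 7.63, 8.23 and 7.55 in HS. Gsta3 (chromosome 1, 21240589 to 21265661), an alpha-class transferase, stood at 5.13, 11.3 and 10.8 in control and 3.95, 4.67 and 3.43 in HS (log2 change -0.94, SE 0.20, adjusted p = 0.257) and was called without control 1 (adjusted p = 0.000638). Gstm1, a mu-class transferase, stood at 43.3, 43.7 and 37 FPKM in control and 28.4, 28.5 and 26.7 in HS. Mgst1, a microsomal relative, stood at 46.1, 44.8 and 33.2 in control and 26.2, 28.7 and 27.3 in HS. Over the 22 genes of the Nrf2 and antioxidant list 15 were lower, 5 of them at an unadjusted p under 0.05, against 3.47% of all genes. The median was -0.09, or -0.01 without control 1.

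STZ is known to alkylate DNA, and p53 targets respond to DNA damage. Of 20 tested p53 targets, 14 were higher (median 0.09, 0.02 without control 1), and 2 separated the groups, where 3.89% of all genes did so on that side: Cdkn1a, which encodes the cell cycle inhibitor p21, at 8.01, 8.61 and 7.12 FPKM in control and 12.5, 9.99 and 9.93 in HS, and the death receptor gene Fas, at 9.07, 12.4 and 12.6 in control and 14.5, 19.8 and 15.3 in HS. Neither was called. Nr1d1, the clock repressor Rev-erb alpha, stood at 1.61, 1.99 and 2.13 FPKM in control and 3.94, 3.44 and 3.46 in HS, again without overlap. The hour of dissection is not given in the sources used here, and its part in that value was not tested. Heat shock genes were higher in 13 of 14 (median 0.32), with a range from 0.04 without control 1 to 0.76 without HS 1 and 0 genes at an unadjusted p under 0.05.

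Contractile genes of the splenic capsule and trabeculae were lower in all 11 tested (median -0.13, -0.27 without control 1), 3 of them without overlap, against 4.65% of all genes. Acta2, smooth muscle actin, stood at 49.5, 72.5 and 51.6 FPKM in control and 41.9, 39.6 and 38.3 in HS. Tagln, an actin-binding protein of the same cells, stood at 86.5, 93.2 and 84.99 in control and 68.7, 66.5 and 69.2 in HS. The list took 0.0504%, 0.0571% and 0.0502% of summed FPKM in control and 0.0439%, 0.0382% and 0.0424% in HS (exact permutation p = 0.1, two-sided, the smallest this design allows). The AOS libraries, without diet or STZ, took 0.0418%, 0.0482% and 0.0434%, also below every control. HS_AOS took 0.0403%, 0.0391% and 0.0315%, and 9 of the 11 genes were lower there than in AOS (median -0.14). What set the controls above AOS was not tested. Timp3 (chromosome 10, 86300372 to 86349506), a matrix-bound protease inhibitor, stood at 34.9, 32.6 and 39.9 FPKM in control and 24.9, 23.9 and 28.2 in HS (log2 change -0.46, SE 0.10, adjusted p = 0.361). In the AOS pair Timp3 stood at 21.96, 26.9 and 23.9 in AOS and 24.2, 25.5 and 29.2 in HS_AOS (log2 change 0.11, SE 0.10). The difference did not recur there, and AOS lay below control as well. The 22 collagen and matrix genes had a median of 0.00, from -0.09 without control 1 to 0.13 without control 2.

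Some of the largest differences were in transcripts of tissues other than spleen. Acinar digestive enzymes of the pancreas, an organ that touches the spleen, were higher in 26 of 27 tested genes (median 3.89). An unadjusted p under 0.05 was reached by 20 of them, against 2.93% of all genes. The trypsinogen gene Try5 stood at 95.4, 13.3 and 1.39 FPKM in control and 1682, 188 and 232 in HS. Every HS library lay above every control, while libraries of the same group differed widely. The islet list took at most 0.000131% of summed FPKM in these libraries, and none of its genes passed the filter on low values. Fat cell transcripts lay lower in HS, 10 of 11 (median -1.24, -0.78 without control 2), with Adipoq, the adipokine adiponectin, at 1.58, 9.81 and 9.13 FPKM in control and 0.83, 4.18 and 0.95 in HS. Control 1 lay within the HS range. Liver transcripts were likewise highest in control 2 and control 3, with albumin (Alb) at 7.59, 105 and 97.95 in control and 17.97, 4.58 and 12.7 in HS. Whether tissue around the spleen was sampled with it was not tested.

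**Figure D4:**
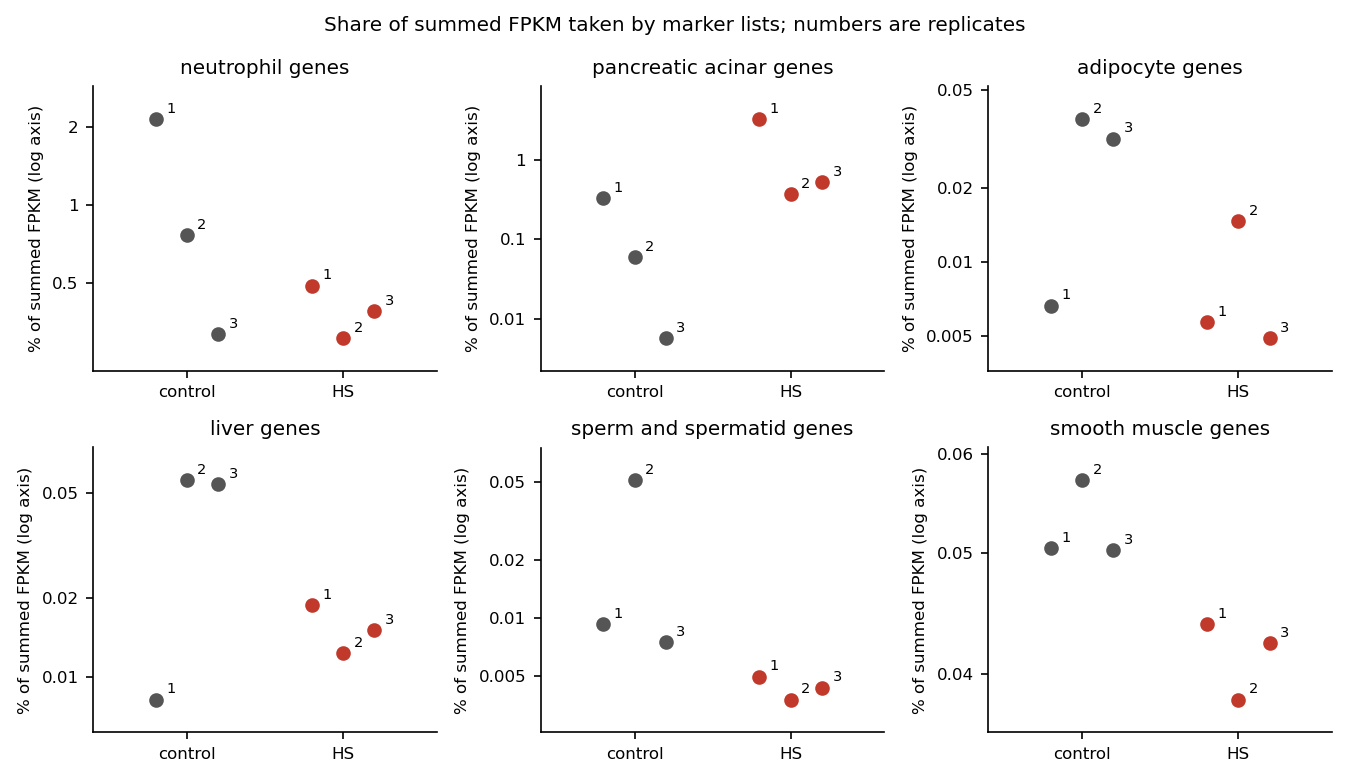
Share of summed FPKM, in percent on log axes (y axis), taken by 6 marker lists in the 3 control and 3 HS libraries (x axis); each point is a library and the number beside it is its replicate. HS exceeds control throughout for acinar genes and lies below it throughout for sperm and smooth muscle genes, while control 1 is the highest library for neutrophil genes and the lowest control for adipocyte and liver genes.

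Kap (chromosome 6, 133849851 to 133853762), known as an androgen-regulated transcript of the kidney proximal tubule, was lower in HS than in control. It stood at 13.3, 20.1 and 20.97 FPKM in control and 0.31, 0.31 and 1.67 in HS (log2 change -3.50, SE 0.28, adjusted p = 2.97e-05), and the smallest value above 0 in any library was 0.15. The call was lost with a pseudocount of 0.1 (adjusted p = 0.0814) and in the fit to the 6 libraries alone (0.098). Across the 15 libraries that are not controls its highest value was 1.67 FPKM, and the AOS libraries, which had neither diet nor STZ, were listed at 0, so the level of Kap set the controls apart from every other group. Outside the controls only HS 3 reached 1 FPKM, so Kap passed the filter through the group where it is high. It was listed at 0 in 7 of the 18 libraries, where values can hardly vary, so the spread behind its call is small. Its call is therefore a description of the controls.

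Traces of other kidney transcripts lay in the same libraries, below the filter on low values. With no filter limma called 7 genes lower, and 4 of the 5 that the filter had left out (Acsm2, Akr1c21, Mep1a and Slc22a6) are known from the kidney tubule; they are named after their values were seen. Akr1c21, a steroid dehydrogenase, stood at 0.12, 0.26 and 0.19 FPKM in control and was listed at 0 in the 3 HS libraries (adjusted p = 0.018 by limma without a filter). Slc22a6, an organic anion transporter, stood at 0.08, 0.09 and 0.09 in control and was listed at 0 in the 15 other libraries. Each of these levels is under 1 FPKM and is far below that of Kap. The 4 genes were listed at or near 0 outside the controls, where values can hardly vary, so the spread behind their calls is small. They were detected through the group where they are high, which makes these values a description. The fifth, Cap2, an actin regulator, stood at 1.06, 0.74 and 0.94 FPKM in control and 0.16, 0.18 and 0.23 in HS. Other tubule genes showed no such gap, as with Lrp2, the endocytic receptor megalin, at 0.09, 0.22 and 0.12 FPKM in control and 0.17, 0.17 and 0.06 in HS. Whether kidney RNA reached the control libraries was not tested.

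After Kap and Oxct1, 4 genes of the maturing sperm head had the smallest p among the lower genes. Tnp1 and Tnp2 encode transition proteins and Prm1 and Prm2 protamines, which replace histones in sperm. Prm1 stood at 11.3, 85.6 and 6.56 FPKM in control and 1.41, 0 and 0.28 in HS, and Tnp1 at 5.44, 39.5 and 3.47 in control and 0.26, 0.26 and 0 in HS. All 4 were highest in control 2, lower in control 1 and control 3, and near 0 in HS. Over the 15 libraries that are not controls, Tnp1 reached at most 0.28 FPKM and Prm1 at most 1.41, and in AOS none of the 4 exceeded 0.89 FPKM. None of the 4 was called by limma (adjusted p = 0.0873 for Tnp1, 0.116 and 0.128 for the protamine genes and 0.241 for Tnp2, and 1 for each in the fit to the 6 libraries alone), although each was without control 2 and without control 3. Tnp1, Tnp2 and Prm2 reached 1 FPKM in the 3 controls only and so passed the filter through the group where they are high, which makes these values a description. In all, 17 genes (0.131%) had all 3 controls above the 15 other libraries and 48 (0.37%) had them below. The second set, read after its values were seen, holds the major histocompatibility genes H2-Q4, H2-Q7 and H2-Q9, whose close copies make single levels uncertain, Tap2 and the activator Nlrc5, together with Cpt1a, Slc25a20, Cyp1b1, Tbx21, Ccl2, Nr1d1 and Fscn1. For these genes the AOS libraries, without diet or STZ, lay above control as well. Npy, which encodes neuropeptide Y, was listed at 0 in the 3 controls and at 0.17, 6.61 and 1.18 FPKM in HS, and it reached 28.7 FPKM in HS_conFMT.

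The same treatment difference could be read again between HS_AOS and AOS, in 6 other libraries. There limma called 3 genes higher, Acot1, Cyp4b1 and Klf10 (0.0231% of those tested), and 2 lower, Oxct1 and Hsp90b1 (0.0154%), or 0.0386% together. Of all genes higher in HS, 48.2% were also higher in HS_AOS than in AOS, and of the 380 at an unadjusted p under 0.05, 215 were (56.6%). At an unadjusted p under 0.05 in the AOS pair, 43 of these 380 were higher and 31 lower. Over all genes higher in HS, 203 were higher and 351 lower at that p. Of the 15 named genes higher in HS, 11 were higher in HS_AOS too. Of these, 9 had an unadjusted p under 0.05 there, against 2.65% of all genes. The pairs share no library, but each gene has the same estimate of spread in both, taken from all 18 libraries. Genes chosen for a small p in HS against control tend to have a small spread, so their p in the AOS pair is not independent of that choice. On the lower side the shares were 54.7% of all, 309 of 450 (68.7%) and 12 of the 15 named genes. Of these 12, 3 had an unadjusted p under 0.05, against 5.74% of all genes. At that p in the AOS pair 48 of the 450 were lower and 9 higher. Over all genes lower in HS, 393 were lower and 141 higher at that p.

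Of those 9 recurring genes 5 are the lipid genes Plin2, Acot1, Acot2, Angptl4 and Cpt1a, and the others are Cyp1b1, Adamtsl4, Klf10 and Rassf4. The 3 on the lower side are Oxct1, Smim24 and Nudt2. Plin2 stood at 22.5, 25.7 and 27.03 FPKM in AOS and 38.3, 32.6 and 30.4 in HS_AOS (log2 change 0.41, SE 0.087, adjusted p = 0.124). Acot1 stood at 1.38, 1.82 and 1.75 in AOS and 9.74, 9.15 and 7.29 in HS_AOS (log2 change 1.87, SE 0.28, adjusted p = 0.0337). Cpt1a stood at 26.1, 25.8 and 25.7 in AOS and 46.8, 45.7 and 36.97 in HS_AOS (log2 change 0.71, SE 0.13, adjusted p = 0.0603). In each of the 3 the groups did not overlap, as between HS and control. Oxct1 fell from 37.2 ± 2.28 to 23.8 ± 0.27 FPKM (SD, n = 3; log2 change -0.62, SE 0.070, adjusted p = 0.00268 by limma) and was called with each single library left out. Klf10 (chromosome 15, 38291463 to 38300706), an early transcription factor of transforming growth factor signalling, stood at 9.77, 9.8 and 10.1 FPKM in control and 14.3, 11.6 and 12.3 in HS, and at 9.17, 10.1 and 10.4 in AOS and 14.4, 14.3 and 13.8 in HS_AOS (log2 change 0.48, SE 0.079, adjusted p = 0.0485). Rassf4, a Ras-association protein, stood at 10.2, 12.4 and 13.2 in control and 15.9, 14.9 and 17.9 in HS, and at 11.3, 9.87 and 10.4 in AOS and 13.7, 17 and 15.2 in HS_AOS. The calls of Acot1 and Klf10 in the AOS pair were lost with any single library left out, with adjusted p from 0.0721 to 0.381, and with no filter (0.0614), and their direction held. That of Klf10 was also lost with the replicate block (0.0746) and in the fit to the 6 libraries of the pair (0.151).

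Cyp4b1, a fatty acid hydroxylase that was listed here with Kap among the kidney tubule genes, was higher in both pairs. It stood at 6.91, 5.73 and 8.41 FPKM in control and 8.48, 11.4 and 12.4 in HS, narrowly without overlap and not called. In the other pair it stood at 4.18, 4.47 and 4.4 in AOS and 9.26, 13.1 and 12.3 in HS_AOS (log2 change 1.22, SE 0.18, adjusted p = 0.0337). That call held in 1 of 6 fits that each left out a library, without HS_AOS 1 (adjusted p from 0.0434 to 0.311 over the 6), and was lost with no filter (0.0614). Pdk4 stood at 2.67, 2.97 and 2.86 in AOS and 5.76, 5.72 and 4.43 in HS_AOS, without overlap. In the list of fatty acid oxidation and PPAR targets 10 of 32 genes had an unadjusted p under 0.05 in the AOS pair, all higher (background 2.65%), and the median was 0.12, or 0.06 without HS_AOS 1. Cholesterol synthesis was lower in 20 of 22 genes (median -0.19) and lipogenesis in 12 of 17 (median -0.21), where Fasn stood at 15.02, 20.5 and 12.9 FPKM in AOS and 8.61, 8.17 and 8.29 in HS_AOS. Fat cell transcripts were lower in this pair too, in 10 of 11 genes, 6 at an unadjusted p under 0.05 (median -1.60), and their part in the lipogenesis values was not tested.

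Over all 6 groups, 13 genes (0.1% of those tested) were higher in each of the 12 libraries with diet and STZ than in each of the 6 without, a count that includes the HS and control libraries themselves. Among them were Acot1, Adamtsl4, Cpt1a, Farp1, Klf10, Ldb1, Maf1, Nectin1, Pdk4, Plin2, Rassf4 and Slc6a12, of which Acot1, Cpt1a, Pdk4 and Plin2 belong to the lipid lists. Lower throughout were 3 genes (0.0231%), Atp5b, Kpnb1 and Mipep. Plin2 ranged from 30.4 to 48.1 FPKM in the 12 and from 22.2 to 27.0 in the 6. Adamtsl4, a matrix protein related to the ADAMTS proteases, ranged from 1.81 to 4.06 in the 12 and from 1.26 to 1.72 in the 6. Oxct1 was not among the genes lower throughout, because HS_AOSFMT stood at 33.9, 33.3 and 32.2 FPKM, within the control range.

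**Figure D5:**
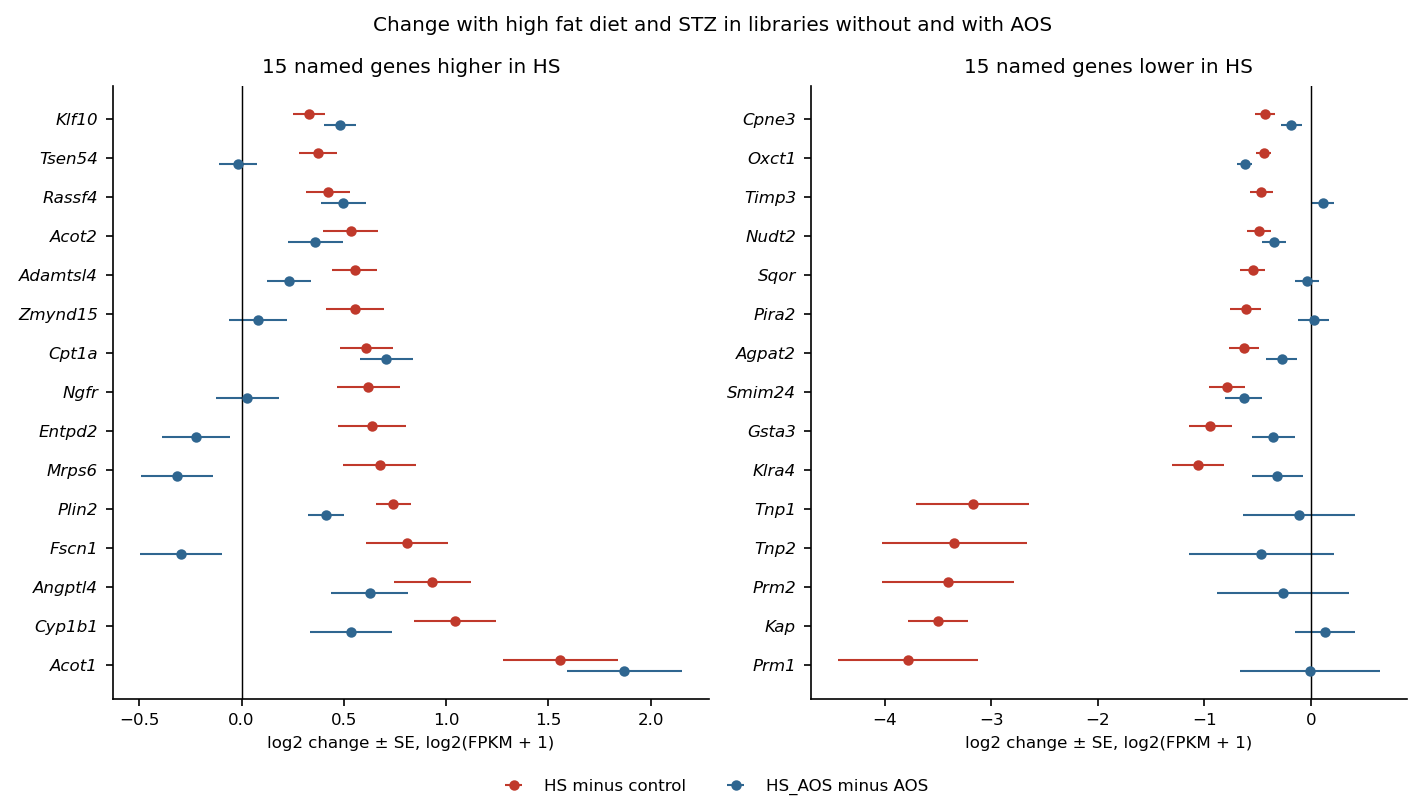
Log2 change with its SE (x axis) for the 15 named genes higher and the 15 lower in HS (y axis), for HS minus control, which chose them, and for HS_AOS minus AOS, which did not. Plin2, Acot1, Acot2, Angptl4, Cpt1a, Klf10 and Rassf4 lie right of 0 in both, Oxct1, Agpat2 and Smim24 left of 0 in both, and Kap and the 4 sperm genes lie between -0.47 and 0.13 in the AOS pair.

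The folding and plasma cell lists went the opposite way in the AOS pair. Genes of the unfolded protein response were lower in HS_AOS than in AOS in 24 of 24 and plasma cell genes in 18 of 18, with medians of -0.43 and -0.59, where 46.6% of all genes were higher in HS_AOS. At an unadjusted p under 0.05, 20 of the folding genes and 12 of the plasma cell genes were lower, against 5.74% of all genes. Hsp90b1 fell in the AOS pair, from 549, 440.3 and 603 FPKM in AOS to 292, 271 and 252 in HS_AOS (log2 change -0.95, SE 0.15, adjusted p = 0.0485), so the AOS libraries, without diet or STZ, lay above HS. The call held without AOS 2 (adjusted p = 0.037) and was lost with each of the 5 other libraries left out (up to 0.34), with the replicate block (0.0585), with no filter (0.0814) and in the 6 libraries of the pair alone (0.0799). The interaction, which is the change without AOS minus the change with AOS, had an unadjusted p under 0.05 in 20 of 24 folding genes and 13 of 18 plasma cell genes, all above 0, where 3.7% of all genes lay above 0 and 2.27% below at that p. For single genes it did not pass the adjusted threshold (Hsp90b1 log2 difference 1.33, SE 0.22, adjusted p = 0.123; Creld2 1.88, SE 0.32, adjusted p = 0.15). Regulatory and activated T cell genes, all higher in HS, were lower in 12 of 18 in the AOS pair, 1 of them at an unadjusted p under 0.05, with a median of -0.15 that became 0.01 without HS_AOS 3. Foxp3 stood at 4.73, 4.59 and 4.13 in AOS and 3.66, 4.94 and 3.13 in HS_AOS. Fscn1, Entpd2 and Mrps6, among the 15 higher genes of HS, had log2 changes of -0.30, -0.22 and -0.32 in the AOS pair. Kap was the only gene whose interaction was called (0.00771% of those tested; log2 change -3.63, SE 0.40, adjusted p = 0.00195). Because Kap passed the filter through the controls, that call is a description of the controls as well.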

How the data were processed

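Mouse spleen RNA was sequenced in 18 Illumina libraries after Trizol extraction, per the labels' protocols. The values are FPKM as deposited by the authors, a unit taken from the values. Bowtie 0.12.2 and the mm10 build are named per the submitters' processing notes, while the counting tool is not given in the sources used here. No read counts were used, so the depth behind each value is unknown and no counting interval is given.

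From these values log2(FPKM + 1) was computed for the 12969 genes that passed the filter (a minimum of 1 FPKM, reached by 3 or more libraries) and fitted with limma 3.58.1 in R 4.3.3 (all 6 groups, no other term, eBayes with trend and robust options), with Benjamini-Hochberg adjustment over those genes. The contrasts were HS minus control, HS_AOS minus AOS, and their difference. Named genes were those called plus the 15 with the smallest p in each direction whose groups did not overlap (antigen receptor segments and predicted genes set aside, and the higher mean at 2 FPKM or more), and, per gene list, its defining members and as many as 4 others by p. Further genes were named after their values were seen. The comparison, its gene lists and tests were chosen with earlier results of these data known. Gene coordinates are from GENCODE on the mm10 build, and promoters are from RefSeq, GRCm38.p6. Summed shares were tested by exact permutation. The fit was checked on simulated data. Alternatives covered the pseudocount, the filter, scaling, the replicate block, the libraries fitted and each library left out. Some genes are not reported here.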

Additional observations from a re-analysis of the deposited data

Results flagged for a closer look

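The change of Kap with diet and STZ differed between the libraries without AOS and those with it. The interaction was -3.63 on the log2(FPKM + 1) scale (SE 0.40, adjusted p = 0.00195 by limma), and it was the only one called of 12969. Control held 13.3, 20.1 and 20.97 FPKM and HS 0.31, 0.31 and 1.67, whereas AOS was listed at 0, 0 and 0 and HS_AOS at 0.15, 0 and 0.15. The control libraries alone were high, and Kap passed the filter on low values through them, so its call is a description. With a pseudocount of 0.1 the interaction was -5.62 and its adjusted p 0.241.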

How the results depend on the processing

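For HS against control, with 1 gene called higher and 1 lower, fitting the 6 libraries alone called 0 and 0, leaving out HS 1 and control 1 together called 0 and 3, and a pseudocount of 0.1 called 0 lower. A filter of 5 FPKM called 2 lower and no filter called 7 lower. With single libraries left out, 1 to 3 were called higher and 1 to 17 lower. The 380 genes higher at an unadjusted p under 0.05 became 214 without HS 1 and control 1, 247 in the 6 libraries alone, 575 with equal totals outside globin and acinar genes, and 580 with median-ratio scaling. They ranged from 234 to 890 with single libraries left out. The 450 lower became 201 in the 6 libraries alone and 1108 without a filter, and ranged from 310 to 736. For HS_AOS against AOS, with 3 called higher and 2 lower, 5 were called higher with equal totals, with its 6 libraries alone and with median-ratio scaling. No filter called 0 higher and 1 lower, and median-ratio scaling called 7 lower. With single libraries left out, 0 to 1 were called higher and 1 to 5 lower. The interaction, with 0 called higher and 1 lower, had 1 called higher with median-ratio scaling and 0 called lower with a pseudocount of 0.1, and ranged over 0 to 5 higher and 1 to 3 lower with single libraries left out. The causes of these shifts were not tested. Some settings hold fewer libraries or other genes, while the scalings and the pseudocount keep all of both.

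Whether replicate numbers pair the libraries is not settled by these values. Same-numbered HS and control libraries correlated in their deviations at 0.464, 0.017 and 0.278. HS 1 and HS 3 correlated best with the control of the same number, and HS 2 with control 3 (0.415). Same-numbered HS_AOS and AOS libraries correlated at -0.212, -0.096 and 0.088. With the replicate block 2 genes were called lower in HS (Kap and Oxct1) and Plin2 stayed called, and HS_AOS against AOS had 2 called higher and 1 lower. Over 443 alternatives for the 30 named genes, 422 kept direction and side of the threshold, 4 lost a call (Plin2 and Kap), 17 gained one and 0 changed sign. These genes were chosen because their groups did not overlap, so only the changes of scaling could have turned a sign. Only Plin2 and Kap had a call to lose, and most of the 422 are genes that stayed uncalled. Of 764 alternative medians over 51 lists, 63 had the other sign, 16 of them without control 1.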
